A study of Mus musculus with 4 samples.

Results

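The first 0.4 Mb of the 5C locus on mouse chromosome 3, from the first probed fragment, which ends at position 89908120, to the fragment that ends at position 90299935 (mm9), was examined in epidermal keratinocytes and in thymocytes. This window holds a run of genes that are not members of the epidermal differentiation complex, among them Nup210l, Rab13, Jtb, Slc39a1, Crtc2 and Gatad2b. Its members were the HindIII fragments with a midpoint in the window. They were 80 fragments, 39 forward and 41 reverse, of 712 fragments over the locus, and each library held 78 of them. The contacts studied had at least 1 end in such a fragment. These were 20376 of 95692 listed contacts in keratinocyte library 1, 14310 of 67210 in keratinocyte library 2, 8454 of 45861 in thymocyte library 1 and 10699 of 53420 in thymocyte library 2. All 4 libraries listed 4250 of them, of 23395 such contacts over the locus.

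Both cell types came from newborn mice of the C57BL/6 strain, and the labels name no genetic change. The keratinocyte medium held hydrocortisone, insulin, EGF, cholera toxin and T3. The keratinocytes were isolated from skin and plated for 15 hours at 32 °C in low calcium medium, while the thymocytes were the total T cell population released from crushed thymi and were not plated. Both were fixed with 1% formaldehyde for 10 minutes, and 2 libraries were made per cell type. The study calls them biological replicates, but the number of mice behind each library was not given in the sources used here, so p-values measure only the spread between these libraries. Plating and medium cannot be told apart from cell type. Contact files hold no expression values. The study also reports microarray expression in both cell types, which was not used here. Neither the identity of the cells nor how broadly these genes are expressed was therefore checked.

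In 5C, chromatin is digested and religated, and probes that anneal at fragment ends are joined where fragments had been ligated to each other. A frequent contact therefore stands for fragments that were often close in the nucleus. Topologically associating domains (TADs) are stretches of chromatin whose fragments meet each other more than they meet fragments across the border. Genes that are active in most cells, such as those for ribosomal proteins, membrane traffic and transcription machinery, often lie close together near domain borders, and active promoters can contact each other over distance. The window lies wholly inside TAD1, whose border with TAD2 was placed at 90.635 Mb in keratinocytes. It starts where the probed locus starts, so contacts with chromatin further upstream were not measured.

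Of the 80 fragments, 59 overlapped a protein-coding gene and 11 held a gene start. Their lengths ran from 131 to 17200 bp with a median of 2733 bp. The annotation (GENCODE M1, mm9) places 15 genes of the study's gene list here. Nup210l, which codes for a protein related to a nuclear pore membrane glycoprotein, is the longest, at chr3:89908054-90015939 on the plus strand. Rps27 (ribosomal protein, chr3:90016593-90017573, minus strand) and Rab13 (small GTPase of membrane traffic and tight junctions, chr3:90017617-90030307, plus strand) start back to back. Then follow Jtb (chr3:90035519-90039760), Creb3l4 (transcription factor of the CREB family, chr3:90041422-90047434), Slc39a1 (zinc transporter, chr3:90052094-90057534), Crtc2 (coactivator of CREB, chr3:90058085-90068047), the predicted gene Gm10973 (chr3:90058870-90059011) and Dennd4b (DENN domain protein, chr3:90069107-90084591). A stretch without genes separates these from Gatad2b (subunit of the NuRD chromatin remodelling complex, chr3:90145576-90162042). The last group holds Slc27a3 (fatty acid transport protein family, chr3:90189161-90193860), Ints3 (Integrator complex subunit, chr3:90195310-90237558), Npr1 (natriuretic peptide receptor, chr3:90254513-90269788), Ilf2 (RNA-binding protein, chr3:90280123-90292301) and Snapin (SNARE-associated protein, chr3:90291948-90294955).

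Contacts between these genes were read by probes at the HindIII sites at the fragments' right ends. The genomic parts of the probes that carry the contacts described further on are shown here, taken from the study's probe list and matched base for base to mm9. Capitals mark the bases of the HindIII site. Forward probes have the sequence of the plus strand and reverse probes that of the minus strand.
FOR_4, in Nup210l, chr3:89920119-89920148: ttttctaagtattgaaattttgccaccAAG
REV_8, in Nup210l, chr3:89933734-89933763: CTTaaggtttcaggagccttccacttcccc
FOR_14, in Nup210l, chr3:89961160-89961189: cctttccgttcactcatatgtctgctaAAG
REV_22, in Nup210l, chr3:89982243-89982272: CTTtaagtagcatgcacgaagccctgggtt
REV_34, fragment of the Rps27 and Rab13 starts, chr3:90017857-90017886: CTTctcgctggtgttcacctgtgatgttcc
FOR_46, between Dennd4b and Gatad2b, chr3:90105290-90105319: ctctctagcctctgtaaaatgttttgtAAG
REV_80, fragment of the Slc27a3 start, chr3:90200917-90200946: CTTtgtatatagcgtcagttgctgcttctc
REV_88, fragment of the Ints3 start, chr3:90238558-90238587: CTTactcaggaggattgtagaatgccagaa
FOR_94, in Npr1, chr3:90258500-90258529: gctttgagaacacttctgtagctaactAAG
REV_134, near S100a14 and outside the window, chr3:90336365-90336394: CTTcccacgatagtcataactgcaagttcc
FOR_180, near S100a8 and outside the window, chr3:90484362-90484391: ggctttggactagagactcttacaaacAAG

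The starts of Rps27 and Rab13 are 43 bases apart, in the same fragment (REV_34, chr3:90014198-90017886), so their contacts cannot be told apart. The stretch between the starts is shown because it sets this limit.
chr3:90017574-90017616, plus strand: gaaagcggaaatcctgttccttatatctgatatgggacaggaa
The same holds for Jtb and Creb3l4, which lie in 1 fragment, and for Crtc2 and Gm10973.

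The window was densely listed, although less so in thymocytes. Of the 1517 pairs of a forward and a reverse fragment inside it, keratinocyte library 1 listed 1475 (97.2%), keratinocyte library 2 listed 1096 (72.2%), thymocyte library 1 listed 855 (56.4%) and thymocyte library 2 listed 1041 (68.6%). Of the pairs that join the window to the rest of the locus, 79.8% and 55.6% were listed in keratinocytes and 31.6% and 41.4% in thymocytes. Counts of ligation products were not used here, so the depth of a contact is unknown. The results that follow use the contacts listed in all 4 libraries, 670 inside the window and 3580 from the window outward, which involve 76 of the 80 fragments. The other 4 fragments were each left out of at least 1 library. Library means over contacts are given with SD over n = 2 libraries per cell type, and differences are keratinocytes minus thymocytes with a two-sided exact permutation test, whose smallest possible p with 2 libraries against 2 is 0.333.

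Inside the window, the thymocyte libraries had the steeper decay of contact frequency with distance. Fragments less than 10 kb apart met more often in thymocytes, and fragments 50 kb or more apart met more often in keratinocytes. The log2 of the mean corrected frequency below 10 kb was 12.82 and 12.67 in keratinocytes and 14.65 and 15.05 in thymocytes, a difference of -2.11 (55 contacts). From 200 to below 400 kb it was 9.21 and 8.39 in keratinocytes and 8.01 and 7.95 in thymocytes, a difference of 0.82 (163 contacts). The libraries of the cell types did not overlap in either range (exact permutation p = 0.333 for both, the smallest possible). The rest of the locus behaved alike in direction, with -2.41 below 10 kb and 1.01 from 200 to below 400 kb. Over all 670 contacts the log2 mean frequency was 10.65 and 10.15 in keratinocytes and 11.37 and 11.71 in thymocytes, a difference of -1.14. The contacts below 10 kb carried it, since the difference was 0.25 from 10 to below 50 kb (libraries overlapping, exact permutation p = 1.0) and 0.72 for contacts at least 50 kb apart. It also rested on the scale of the libraries, which are not scaled to each other, and was -0.06 (exact permutation p = 1.0) with the libraries scaled to the same total. The expected frequency at the same distances differed by -1.56, and was 10.19 and 9.67 in keratinocytes and 11.34 and 11.64 in thymocytes. The log2 ratio of the mean observed to the mean expected frequency, to which the frequent contacts at short distance add most, was 0.46 and 0.48 in keratinocytes and 0.03 and 0.07 in thymocytes, with no overlap (difference 0.42, exact permutation p = 0.333). The mean of the log2 ratios of single contacts, in which each contact counts the same, differed by 0.14.

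**Figure D1:**
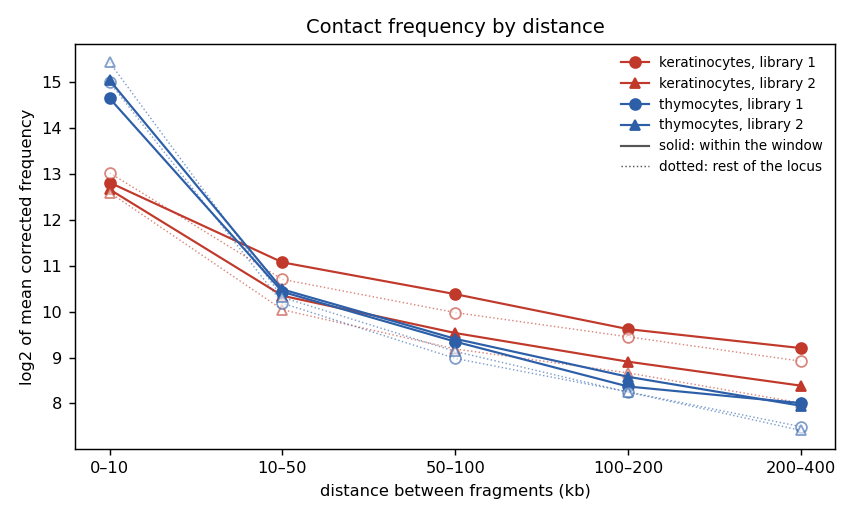
Log2 of the mean corrected 5C frequency (vertical axis) against the distance between fragments in kb (horizontal axis) for each library, solid for the 670 contacts within the window and dotted for the rest of the locus. Below 10 kb both thymocyte lines (14.65 and 15.05 in the window) lie above both keratinocyte lines (12.82 and 12.67), and from 50 kb on the order is turned.

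The Z score of a contact is its observed minus expected frequency, divided by the standard deviation expected at that distance in the same library. Within the window it was above the expected value on average in every library, and its spread was wider in thymocytes. The mean Z score was 0.892 and 0.980 in keratinocytes (0.936 ± 0.062, SD, n = 2) and 1.05 and 1.22 in thymocytes (1.14 ± 0.119, SD, n = 2), a difference of -0.201 with no overlap (exact permutation p = 0.333). The median pointed the other way, at 0.638 and 0.548 in keratinocytes against 0.144 and 0.322 in thymocytes, a difference of 0.360. The 10th percentile of the Z score was -0.498 and -0.522 in keratinocytes and -1.21 and -0.856 in thymocytes, and the 90th percentile was 2.79 and 2.91 against 4.30 and 4.80. The typical contact thus had the higher Z score in keratinocytes, and the strongest contacts had the higher Z scores in thymocytes. Both keratinocyte Z scores were above both thymocyte Z scores for 212 of the 670 contacts (31.6%) and below both for 96 (14.3%), against 21.1% and 19.1% of all contacts of the locus.

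Strong contacts within the window were called mainly in thymocytes. A contact was called in a cell type where both of its libraries gave it a q-value under 0.05. In thymocytes 73 of the 670 contacts were called (10.9%), against 3.77% of all contacts of the locus. In keratinocytes 14 were called (2.09%), against 2.03% of the locus, a share near the background. Contacts called in both cell types numbered 8 (1.19%, background 0.581%), those called only in keratinocytes 6 (0.896%, background 1.45%) and those called only in thymocytes 65 (9.70%, background 3.19%). In single libraries, the called share was 10.9% and 12.4% in keratinocytes, where the background was 9.06% and 8.81%, and 17.8% and 22.7% in thymocytes, where it was 9.56% and 11.9%. The thymocyte libraries were both above both keratinocyte libraries (difference -8.58 percentage points, exact permutation p = 0.333). When contacts needed to be listed only in the libraries of 1 cell type, the calls were 73 of 743 in thymocytes (9.83%, background 4.03%) and 21 of 1029 in keratinocytes (2.04%, background 1.99%).

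**Figure D2:**
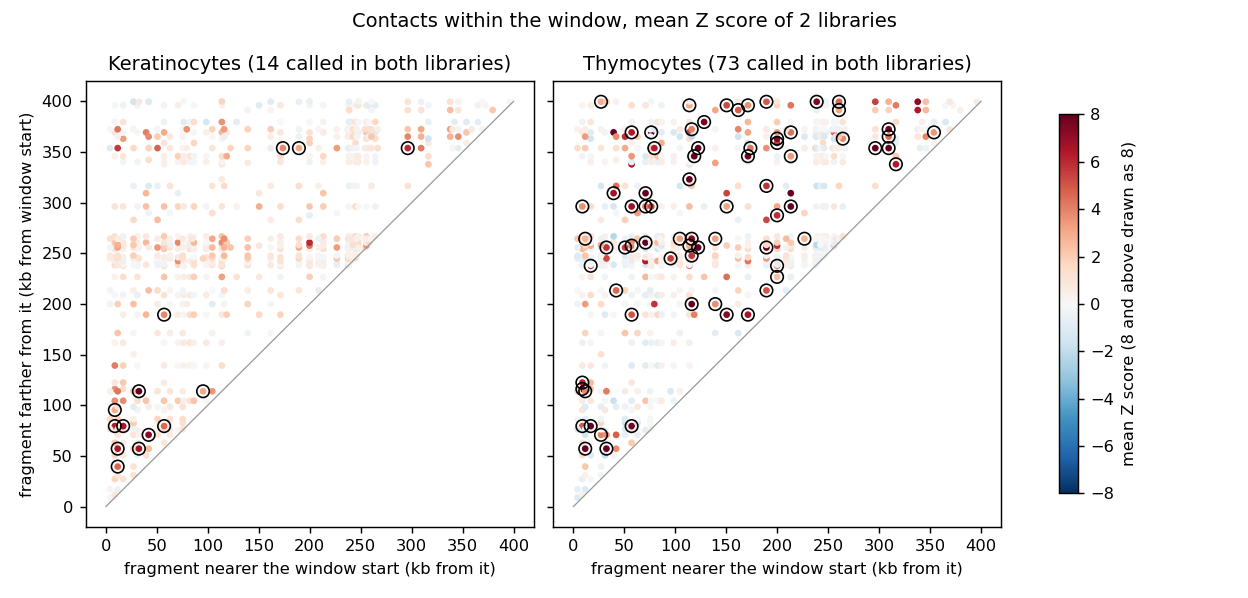
Maps of the 670 contacts within the window, in keratinocytes (left) and thymocytes (right). Each point is a contact, placed by the distance of its fragments from the start of the window in kb and coloured by the mean Z score of 2 libraries, and black rings mark the 14 keratinocyte and 73 thymocyte calls. Most keratinocyte rings lie in the lower left corner, which is Nup210l, while the thymocyte rings spread over the whole window.

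The calls of the cell types also differed in reach. The 14 keratinocyte calls spanned a median of 52 kb and at most 174 kb, whereas the 73 thymocyte calls spanned a median of 143 kb and at most 368 kb. From 200 to below 400 kb, thymocytes had 24 calls among 163 contacts (14.7%) and keratinocytes had 0, where the rest of the locus had 2.23% and 1.85% at these distances. In single keratinocyte libraries, 11 (6.75%) and 26 (15.95%) of the 163 contacts were called, against 9.66% and 6.91% in the rest of the locus. In single thymocyte libraries 39 (23.9%) and 51 (31.3%) were called, against 7.21% and 8.37%. Keratinocyte library 1 thus lay below the rest of the locus and keratinocyte library 2 above it. From 10 to below 50 kb, 7 of 122 contacts (5.74%) were called in keratinocytes and 14 (11.5%) in thymocytes. The rest of the locus had 1.64% and 4.28% at these distances, so both cell types lay above it there. Below 10 kb both lay under it. Of the 55 window contacts, 0 (0%) were called in keratinocytes and 1 (1.82%) in thymocytes, against 2.45% and 4.91% in the rest of the locus. Of the 24 long thymocyte calls, 17 were called in neither keratinocyte library, and 7 were called in keratinocyte library 2 alone. Their Z scores ran from 2.44 to 14.1 in the thymocyte libraries and from -2.26 to 5.67 in the keratinocyte libraries. Both thymocyte Z scores lay above both keratinocyte Z scores for 20 of the 24, against 19.1% of all contacts of the locus. The 24 were chosen for high thymocyte Z scores, so this count is no separate evidence of a difference.

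**Figure D3:**
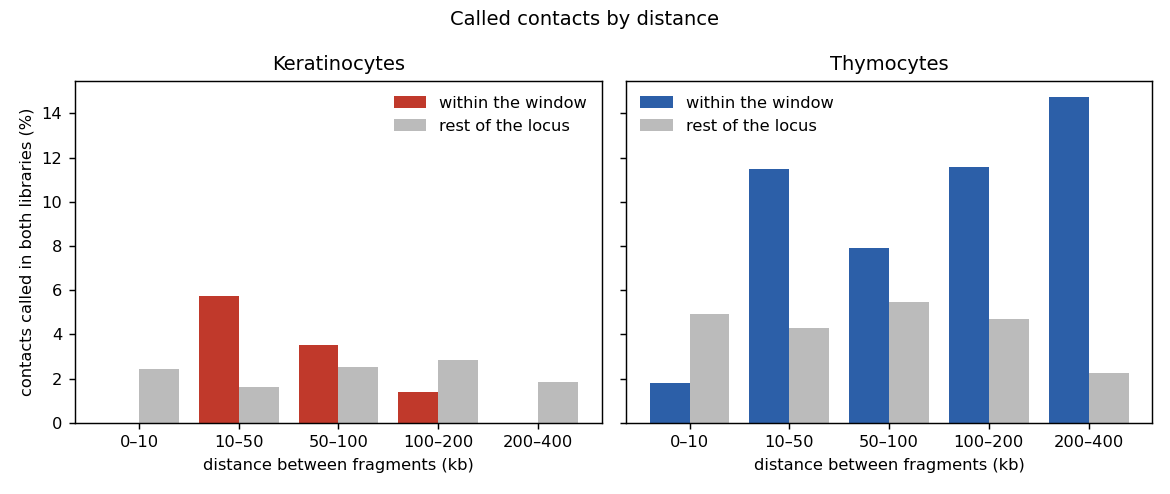
Share of contacts called in both libraries of a cell type, in percent, by distance between fragments in kb, within the window (coloured) and in the rest of the locus (grey). Bars are shares of 55, 122, 114, 216 and 163 window contacts. In thymocytes the window reached 14.7% from 200 to below 400 kb against 2.23% in the rest of the locus, and in keratinocytes it had no call there.

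Matched for distance in bins of 50 kb, the rest of the locus would have given 4.203% thymocyte calls and 2.23% keratinocyte calls at the distances of the 670 contacts. Among the other stretches of 400 kb, 6 held at least 300 contacts, and their shares ran from 1.76% to 8.82% in thymocytes and from 0.172% to 6.03% in keratinocytes. The window's thymocyte share thus lay above those of the other 6 stretches and its keratinocyte share among them. The mean Z score within the window exceeded that of the rest of the locus at matched distance by 0.450 and 0.520 in the keratinocyte libraries and by 0.512 and 0.665 in the thymocyte libraries (mean 0.537 ± 0.091, SD, n = 4 libraries). It was higher in 4 of 4 libraries (exact sign-flip permutation test, two-sided p = 0.125, the smallest possible), and this excess did not differ between the cell types beyond the spread of the libraries (difference -0.103, exact permutation p = 0.667).

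Nup210l, the gene at the start of the window with 25 fragments, carried most keratinocyte calls, and these joined it to itself. Of the 14 keratinocyte calls, 11 had an end in Nup210l and 10 had both. Of all 670 contacts within the window, 380 had an end in Nup210l and 82 had both. Its 82 internal contacts had mean Z scores of 1.75 and 1.66 in keratinocytes and 0.765 and 0.854 in thymocytes, and the libraries did not overlap (difference 0.897, exact permutation p = 0.333). This was not particular to Nup210l. The 13 contacts within Gatad2b had 0.988 and 1.05 against -0.170 and 0.0390 (difference 1.09). Dennd4b, Ints3 and Npr1, with 2 internal contacts each, had negative differences, and Ilf2, with 1, a positive one. Over all window contacts the difference was 0.763 below 10 kb and 0.0402 from 10 to below 50 kb. In thymocytes 36 of the 73 calls had an end in Nup210l and 8 had both. Unlike the contacts within Nup210l, those of Nup210l with Ints3 had the higher mean Z scores in thymocytes. Their mean Z scores were 0.884 and 0.843 in keratinocytes and 3.63 and 2.19 in thymocytes (21 contacts, difference -2.04, exact permutation p = 0.333), and 7 of them were called in thymocytes and 0 in keratinocytes. Slc27a3, whose start shares a fragment with the end of Ints3, had mean Z scores with Nup210l of 0.981 and 1.03 in keratinocytes and 2.07 and 1.97 in thymocytes (13 contacts, 4 thymocyte calls). These 4 calls all lay in the shared fragment and are also among the 7 of Ints3. Nup210l fills the start of the window, so many pairs at long distance have an end in it. It had 276 contacts from 100 kb on, where the window held 216 from 100 to below 200 kb and 163 from 200 to below 400 kb. Of its 276 contacts, 29 were called in thymocytes. Of the 24 thymocyte calls from 200 kb on, 17 had an end in Nup210l. How many Nup210l contacts lay that far apart was not counted, so the 17 cannot be read as a preference for this gene. Of these 17, 11 reached Slc27a3, Ints3, Npr1, Ilf2 or Snapin. The 68 contacts of Nup210l with Gatad2b, which lies between these genes, had like mean Z scores in both cell types, at 1.06 and 1.10 in keratinocytes and 0.956 and 1.21 in thymocytes, with 7 thymocyte calls and 0 keratinocyte calls.

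Over all of their contacts, inside and outside the window, 10 of the 15 genes had a lower mean Z score in keratinocytes and 5 a higher one, with a median difference of -0.130. The libraries of the cell types did not overlap for 3 genes, Rab13, Ints3 and Snapin, all lower in keratinocytes. Rab13 showed the largest difference. Its 4 fragments had mean Z scores of 0.457 and 1.35 in keratinocytes and 1.93 and 2.87 in thymocytes over 60 contacts (difference -1.50), and 14 of these contacts (23.3%) were called in thymocytes and 0 in keratinocytes, where the whole locus had 3.77% and 2.03%. These fragments were thinly listed in thymocyte library 1, with 25 to 51 contacts each against 272 to 307 in keratinocyte library 1. Of the 60 contacts, 31 came from REV_34, which also holds the Rps27 start. Whether thin listing bears on the difference was not tested. Ints3 had 0.858 and 1.36 in keratinocytes and 2.09 and 1.61 in thymocytes over 206 contacts (difference -0.740), with 11 calls in keratinocytes (5.34%) and 31 in thymocytes (15.05%). Snapin had 0.261 and 1.00 in keratinocytes and 1.04 and 1.11 in thymocytes over 134 contacts (difference -0.444), but without keratinocyte library 1 its difference was -0.0742. With the median over contacts in place of the mean, the difference was -0.332 for Rab13 and -0.0253 for Ints3. Each of these had an exact permutation p of 0.333, which became 1.0 after Benjamini-Hochberg adjustment over the 15 genes.

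The other genes had overlapping libraries. Rps27, in a single fragment that it shares with the start of Rab13 and the end of Nup210l, had mean Z scores of 0.179 and 1.60 in keratinocytes and 1.37 and 2.18 in thymocytes over 31 contacts, with 5 thymocyte calls (16.1%) and 0 keratinocyte calls. Nup210l had 0.475 and 0.710 in keratinocytes and 0.708 and 0.736 in thymocytes over 1511 contacts. Slc27a3 (0.569 and 1.12 against 1.03 and 1.32) and Npr1 (0.375 and 1.00 against 1.00 and 1.29) had their lowest value in keratinocyte library 1. Gatad2b had 0.501 and 0.716 in keratinocytes and 0.584 and 0.742 in thymocytes over 682 contacts, and Ilf2 had 0.536 and 0.935 against 0.726 and 0.772. In the middle of the window, Jtb and Creb3l4, read by the same fragment, had 0.552 and 0.376 in keratinocytes and 0.398 and 0.337 in thymocytes. Crtc2 and Gm10973 had 0.569 and 0.587 against 0.184 and 0.612. Slc39a1 had 0.568 and 0.918 against 0.233 and 1.76, so that the thymocyte libraries lay on both sides of the keratinocyte libraries. Dennd4b had 0.659 and 0.796 against 0.604 and 0.800. Within the window, all 15 genes had more thymocyte than keratinocyte calls and 10 had no keratinocyte call, but genes that share fragments share these calls. The window as a whole had 14 keratinocyte calls (2.09%) and 73 thymocyte calls (10.9%) among 670 contacts. Apart from Gatad2b with 175, the genes without a keratinocyte call had 11 to 32 contacts each within the window, so a lack of calls says little about any of them.

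**Figure D4:**
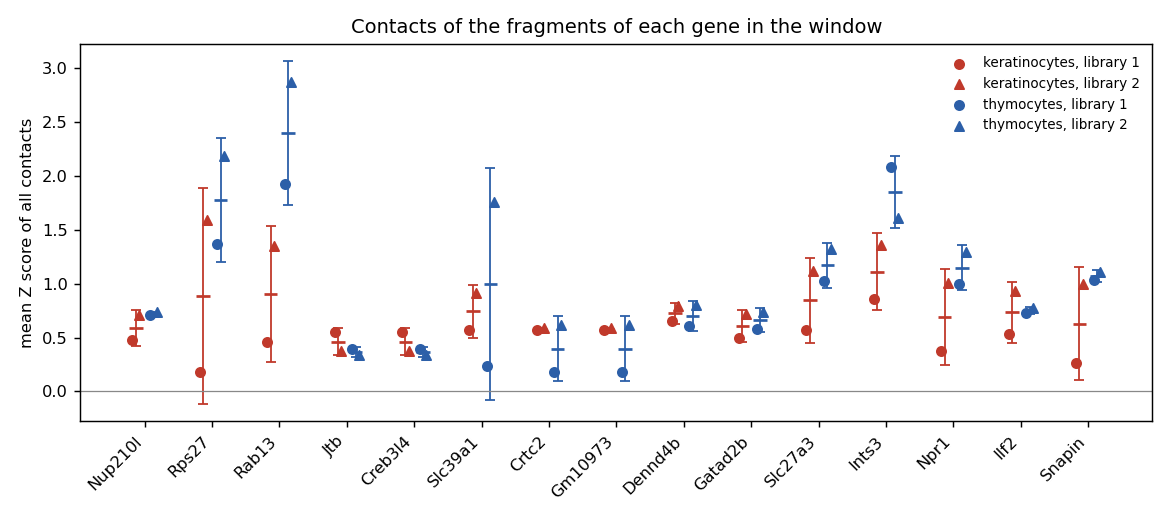
Mean Z score of all contacts of the fragments that overlap each of the 15 genes (horizontal axis, in genomic order), for each library. Points are libraries, horizontal lines their mean and bars the SD over 2 libraries. Rab13 and Ints3 lie higher in both thymocyte libraries than in both keratinocyte libraries, while the libraries of the cell types overlap for Jtb, Creb3l4 and Gatad2b.

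Of the 5 contacts called in both cell types with the highest Z scores, 3 lay within the window and 2 led to fragments outside it that overlap no gene. Among the 19 contacts called in both cell types, the strongest joined FOR_83, inside Ints3, to REV_1164, 38 kb from the S100a10 start in TAD4, over 3178 kb. Its Z score was 7.02 and 16.6 in keratinocytes and 9.18 and 13.6 in thymocytes. Within Nup210l, FOR_4 met REV_22 over 56 kb with 5.86 and 7.02 in keratinocytes and 6.95 and 9.94 in thymocytes, and REV_8 met FOR_14 over 19 kb with 5.35 and 7.85 against 7.40 and 8.75. The fragment of the Slc27a3 start (REV_80) met FOR_94 in Npr1 over 48 kb with 5.67 and 6.25 in keratinocytes and 9.01 and 10.1 in thymocytes. The same fragment met FOR_183, 8 kb from the S100a9 start, over 290 kb with 5.04 and 14.3 against 10.2 and 5.41. S100a9, with S100a8, codes for a calcium-binding protein of inflamed epithelium and myeloid cells.

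Of the 4250 contacts of the window, 20 were called in 2 keratinocyte libraries and 0 thymocyte libraries with Z scores that did not overlap (0.471%, background 0.834%), 1 within the window and 19 outward. The 5 with the largest differences all led outward. The fragment of the Ints3 start (REV_88) met FOR_180, 11 kb from the S100a8 start, over 245 kb with Z scores of 6.74 and 14.4 in keratinocytes and 1.20 and -0.427 in thymocytes. Its corrected frequency was 1947 and 1952 against 248 and 127, where 456 and 254 were expected in keratinocytes and 166 and 152 in thymocytes. The fragment of the Npr1 start (REV_100) met FOR_163, 4 kb from the S100a6 start, with 5.05 and 10.6 against 0.0786 and 0.198. It also met FOR_1144, 8 kb from the S100a11 start in TAD4, with 4.13 and 5.99 against -1.45 and -0.993. The other 2 joined REV_13 in Nup210l to Setdb1 (histone methyltransferase) in TAD7, with 5.48 and 6.17 against -0.399 and -0.825, and REV_80 to Riiad1 in TAD6, with 3.44 and 6.91 against -0.534 and -0.680. These contacts were chosen for their difference, so no test is given.

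In the opposite direction, 108 contacts were called in both thymocyte libraries and in no keratinocyte library with Z scores that did not overlap (2.54%, background 1.77%), 34 within the window (5.07% of 670) and 74 outward. The largest difference was between FOR_14 in Nup210l and REV_134, 5 kb from the S100a14 start, over 373 kb, with Z scores of -0.184 and 0.833 in keratinocytes and 13.6 and 13.8 in thymocytes. The corrected frequency was 312 and 246 against 848 and 623. The fragment of the Ilf2 start (REV_102) met FOR_156, 5 kb from the S100a3 start, with -0.592 and 0.0206 against 13.6 and 10.0. FOR_2 in Nup210l met the fragment of the start of Pglyrp4, a peptidoglycan recognition protein, over 620 kb, with -0.212 and 2.24 against 15.5 and 10.4. FOR_21 in Nup210l met the fragment of Crct1, a gene of the cornified envelope region in TAD4, with -0.420 and -1.28 against 3.92 and 17.98. Its corrected frequency was 38.8 and 11.3 against 177 and 99.1, where 61.6 and 10.4 were expected in thymocytes. The highest of these Z scores thus went with a low expected frequency. Within the window, the fragment of the Rps27 and Rab13 starts (REV_34) met FOR_46, in the stretch without genes after Dennd4b, over 76 kb. Its Z scores were -0.750 and 1.40 in keratinocytes and 12.3 and 11.05 in thymocytes, and its corrected frequency was 561 and 749 against 1982 and 1856.

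Toward the rest of the locus, the order of the cell types changed along the chromosome. Contacts of the window with TAD1 to TAD4 had the lower mean Z scores in keratinocytes, and contacts with TAD6 and TAD7 the higher ones. With the rest of TAD1 the mean Z score was 0.459 and 0.838 in keratinocytes and 0.842 and 0.903 in thymocytes (874 contacts, difference -0.224). With the gene-poor TAD2 it was -0.186 and 0.286 against 0.752 and 0.778 (310 contacts, difference -0.716), the largest difference among the 8 partner regions. With TAD3, which holds the genes of the cornified envelope, it was 0.153 and 0.682 against 0.695 and 0.983 (531 contacts, difference -0.421). With TAD6, which lies at least 3773 kb away, it was 0.376 and 0.501 against 0.371 and 0.363 (738 contacts, difference 0.071), and with TAD7 at the far end 0.551 and 0.612 against 0.203 and 0.315 (423 contacts, difference 0.322). In these 5 regions and within the window the libraries of the cell types did not overlap (exact permutation p = 0.333, adjusted p = 0.444 over the 8 regions). They overlapped with TAD4 (0.341 and 0.723 against 0.722 and 0.908, 670 contacts) and with the gene-poor TAD5 (0.140 and 1.10 against 0.545 and -0.151, 34 contacts), with an adjusted exact permutation p of 0.667 for both. Keratinocyte library 1 had the lowest value of the 4 libraries with TAD1 to TAD4, and without it the difference was -0.0343 with the rest of TAD1, -0.480 with TAD2, -0.157 with TAD3 and -0.0919 with TAD4. By the median Z score the cell types overlapped for TAD2 to TAD7, and the direction was turned for the rest of TAD1 (0.303 and 0.322 against 0.127 and 0.218), TAD3 and TAD6.

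**Figure D5:**
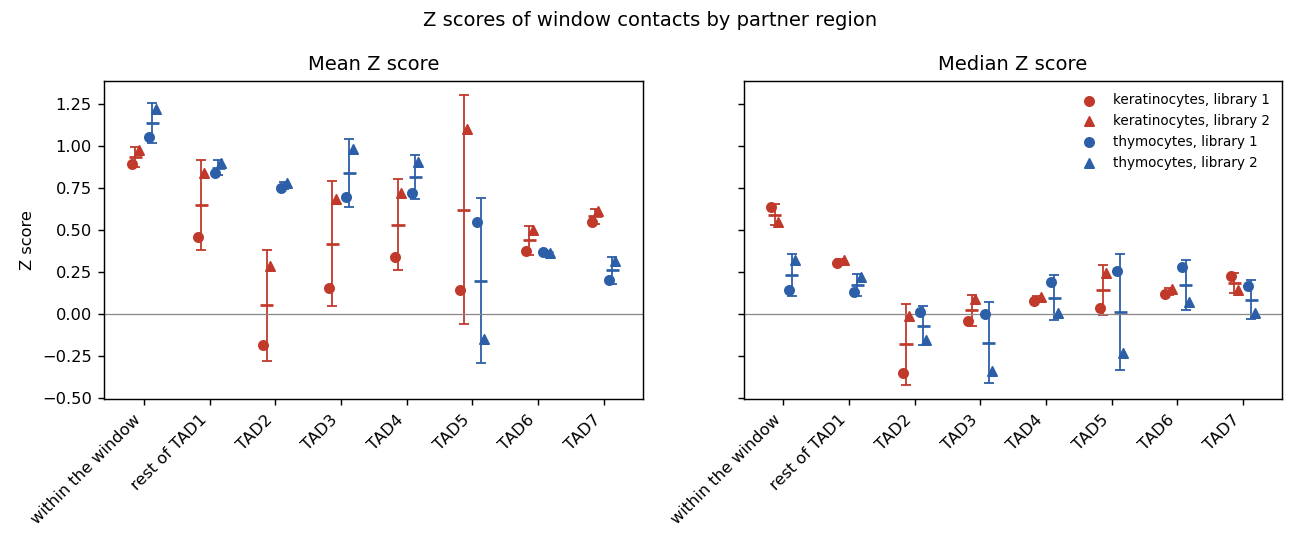
Mean (left) and median (right) Z score of the contacts of the window by partner region (horizontal axis), for each library. Points are libraries, short lines the mean of a cell type and bars the SD over 2 libraries. The mean lies lower in keratinocytes with TAD2 (-0.186 and 0.286 against 0.752 and 0.778) and higher with TAD7, while the medians with TAD2 to TAD7 lie between -0.352 and 0.280 and overlap between the cell types.

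Corrected frequencies of the outward contacts did not follow the same order. The log2 mean frequency with TAD2 was 6.61 and 6.11 in keratinocytes and 6.10 and 5.82 in thymocytes (difference 0.40), and the expected frequency differed by 0.76. With TAD7 it was 6.66 and 5.96 against 6.96 and 6.71 (difference -0.52), and the expected frequency differed by -0.70. For these 2 regions the difference of frequency and that of the Z score thus had opposite signs. Frequencies are not scaled between libraries, and with the libraries scaled to the same total the difference with TAD7 became 0.55. With TAD6 the log2 mean frequency was 6.26 and 5.77 against 6.98 and 6.63 (difference -0.79), with the rest of TAD1 it was 9.20 and 8.57 against 8.51 and 8.61 (difference 0.33), with TAD3 it was 5.94 and 5.48 against 5.84 and 4.89 (difference 0.34), and with TAD4 it was 5.89 and 5.29 against 6.23 and 5.74 (difference -0.39). With the same scaling the differences became 1.40 with the rest of TAD1, 1.48 with TAD2, 1.42 with TAD3, 0.68 with TAD4 and 0.28 with TAD6, with overlapping libraries for TAD6.

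Taken over all outward contacts, the share of thymocyte calls was that of the locus. Of the 3580 outward contacts, 134 were called in thymocytes (3.74%, background 3.77%), 48 in keratinocytes (1.34%, background 2.03%) and 11 in both (0.307%, background 0.581%). With the rest of TAD1 there were 15 keratinocyte (1.72%) and 50 thymocyte calls (5.72%), with TAD2 0 (0%) and 15 (4.84%), with TAD3 4 (0.753%) and 20 (3.77%), with TAD4 13 (1.94%) and 33 (4.93%), with TAD5 0 and 0, with TAD6 8 (1.08%) and 14 (1.90%) and with TAD7 8 (1.89%) and 2 (0.473%). Against the locus, the thymocyte share was higher with the rest of TAD1, TAD2 and TAD4 and lower with TAD6 and TAD7, and the keratinocyte share was below 2.03% with every TAD. In single libraries, 11.8% and 10.6% of the contacts with TAD7 were called in keratinocytes and 3.31% and 8.51% in thymocytes (difference 5.32 percentage points, exact permutation p = 0.333). Among the 3387 outward contacts that could be matched for distance, 1.27% were called in keratinocytes and 3.93% in thymocytes, against 2.46% and 2.69% in the rest of the locus. The outward mean Z score differed from that of the rest of the locus at matched distance by -0.181 and 0.098 in keratinocytes and by 0.104 and 0.096 in thymocytes (exact sign-flip permutation test over 4 libraries, two-sided p = 0.625), a difference smaller than the spread between libraries.

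By gene group, the window's contacts with the S100 genes of TAD1, which code for calcium-binding proteins, had mean Z scores of 0.344 and 0.814 in keratinocytes and 0.996 and 1.63 in thymocytes (181 contacts, difference -0.733), with 3 keratinocyte (1.66%) and 13 thymocyte calls (7.18%), where the whole locus had 2.03% and 3.77%. With the Lor, Sprr, Ivl and Lce1 genes, which code for proteins of the cornified envelope of the epidermis, they were -0.191 and 0.526 against 1.06 and 1.09 (117 contacts, difference -0.906), with 0 and 7 calls (0% and 5.98%). With Lce3, Crct1, the Flg-like genes, S100a10 and S100a11 they were 0.490 and 0.609 against 0.935 and 0.702 (94 contacts, difference -0.269), with 4 and 7 calls (4.26% and 7.45%). With the genes of TAD6 they were 0.425 and 0.516 against 0.376 and 0.330 (516 contacts, difference 0.118), with 6 and 11 calls (1.16% and 2.13%). With those of TAD7 they were 0.633 and 0.646 against 0.217 and 0.318 (difference 0.372), with 8 keratinocyte calls (2.29%) and 1 thymocyte call (0.287%) among 349 contacts. The libraries of the cell types did not overlap for any of the 5 groups (exact permutation p = 0.333, also after adjustment over the 5).

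The window holds 1 of the study's 16 enhancers, E1, at chr3:90015243-90017711, over the end of Nup210l, Rps27 and the start of Rab13. Enhancers are stretches of DNA from which transcription of genes can be raised over distance. The study placed them by histone marks in sorted basal keratinocytes, so they are putative enhancers of that cell type. It reports several promoter contacts in keratinocytes for every enhancer region except E16, from contacts that did not need to be listed in thymocytes. The 6 fragments within 10 kb of it had 271 contacts, with mean Z scores of 0.726 and 0.667 in keratinocytes and 0.795 and 1.10 in thymocytes (difference -0.253, exact permutation p = 0.333), with 2 keratinocyte (0.738%) and 22 thymocyte calls (8.12%), against 2.03% and 3.77% of the locus. Within the window their mean Z scores were 1.72 and 1.52 against 1.71 and 2.24, and outward 0.315 and 0.316 against 0.420 and 0.636. Their 37 contacts with fragments within 10 kb of the other enhancers had 0.515 and 0.340 against 0.177 and 0.808, with no call in either cell type. The window as a whole met fragments within 10 kb of the other enhancers with mean Z scores of 0.338 and 0.647 in keratinocytes and 0.759 and 0.688 in thymocytes (585 contacts, with 8 calls or 1.37% and 23 calls or 3.93%, the latter near the background), and the remaining outside fragments with 0.324 and 0.653 against 0.586 and 0.719.

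Contact by contact, no difference between the cell types passed a test over the whole locus. With limma on the Z scores of 23395 contacts, 0 contacts had an adjusted p under 0.05 in either direction, for the locus (0%) as for the 4250 contacts of the window, whose smallest adjusted p was 0.767. At an unadjusted p under 0.05, limma gave 163 window contacts higher in keratinocytes (3.84%, background 2.97%) and 94 lower (2.21%, background 2.14%). Replicate Z scores were only loosely alike, with a Pearson correlation across the 670 contacts within the window of 0.248 in keratinocytes and 0.427 in thymocytes. The corrected frequencies of the same contacts, which share the fall with distance, correlated at 0.828 and 0.948.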

How the data were processed

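The 5C libraries were processed by the authors, who aligned the reads uniquely to the probe sequences with Bowtie (version not given in the sources used here), counted forward-reverse pairs, left out deviating probes and isolated extreme contacts, and then scaled each probe by a Loess fit. The deposited signal of each contact is this corrected frequency, with the expected frequency and its standard deviation from a Loess fit on distance. The deposited score is the Z score, which recomputation from the frequencies returned. The p-value and q-value deposited for each contact come from a Weibull fit in each library. The other deposited values are fragment coordinates (mm9) and the distance between fragments, taken here as given. Raw counts were not used here, so depth is unknown.

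Groups and replicate numbers came from the sample titles. Fragments were assigned by midpoint and to TADs by the study's average keratinocyte borders. Gene fragments are those in the window that overlap the gene body. A call needed a q-value under 0.05 in each library of the cell type. Library means were compared by two-sided exact permutation tests, and the rest of the locus was matched in bins of 50 kb. Contacts share fragments and are not independent. limma 3.58.1 (lmFit, eBayes with trend) was run in R 4.3.3 on all 23395 contacts and tested on simulated data. All 15 listed genes of the window are named. Contacts are named as up to 5 called in both cell types with the highest lowest Z score, and up to 5 in each direction called in 1 cell type only, without overlap, with the largest difference. The members, gene lists and tests were chosen with earlier results of these data known. Alternatives covered thresholds, distances, borders, scales, summaries and left-out libraries, and the splits by distance, by stretch, by single library and by cell type were added after seeing the data.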

Additional observations from a re-analysis of the deposited data

How the results depend on the processing

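The labels do not state that same-numbered libraries are paired, so the main comparisons use no pairing. The deviations of same-numbered libraries correlated at -0.0937 over 23395 contacts, at -0.187 within the window and at -0.0352 outward. With the replicate number as a block, 0 contacts of the window passed limma, and the differences keep their size by construction, such as -0.201 within the window, with a smallest possible exact p of 0.5. No direction of a difference between cell types can be called with 2 libraries against 2, and many turned. With the median over contacts, the Z score difference became 0.360 within the window, 0.140 with the rest of TAD1, 0.193 with TAD3 and -0.0408 with TAD6, and at matched distance the excess between cell types became 0.377 within the window and 0.00308 outward, while the outward excess over the rest of the locus became -0.0396. On the log2 scale of corrected over expected frequency, the differences became 0.14 within the window, 0.000904 with the rest of TAD1 and -0.0464 with TAD5. With all contacts listed in each library they became -0.138 with TAD5 and -0.0469 with TAD6, and the outward excess became -0.0153. The log2 frequency difference became 0.72 within the window for contacts at least 50 kb apart and, with libraries scaled to the same total, -0.06 within the window, 1.40, 1.48 and 1.42 with the rest of TAD1, TAD2 and TAD3, and 0.68, 0.35, 0.28 and 0.55 with TAD4 to TAD7. By gene, the median turned the Z score difference of Nup210l (0.154), Jtb and Creb3l4 (-0.00484), Slc39a1 (0.408), Gatad2b (0.205), Slc27a3 (0.114), Npr1 (0.268), Ilf2 (0.0782) and Snapin (0.0144). The log2 ratio turned Nup210l (0.0190), Jtb and Creb3l4 (-0.0838), Slc39a1 (0.168) and Gatad2b (0.0747), all listed contacts turned Crtc2 and Gm10973 (-0.400) and Dennd4b (-0.473), and fragments within 10 kb of the gene turned Jtb (-0.405), Creb3l4 (-0.0880), Crtc2 (-0.207), Gm10973 (-0.251) and Dennd4b (-0.0879). The differences of Rab13, Rps27 and Ints3 kept their direction under every alternative run but not their size, which fell to -0.318 for Rab13 with fragments within 10 kb, -0.180 for Rps27 without keratinocyte library 1 and -0.0253 for Ints3 with the median. Leaving out 1 library at a time, the Z score difference ran from -0.286 to -0.117 within the window, -0.413 to -0.0343 with the rest of TAD1, -0.952 to -0.480 with TAD2, -0.686 to -0.157 with TAD3, -0.474 to -0.0919 with TAD4, -0.0572 to 0.906 with TAD5, 0.00902 to 0.134 with TAD6, -1.60 to -0.180 for Rps27, -0.813 to -0.0742 for Snapin, -0.773 to -0.143 for Npr1, -0.603 to -0.0499 for Slc27a3, -0.247 to -0.0118 for Nup210l, -1.01 to 0.510 for Slc39a1, -0.0347 to 0.394 for Crtc2 and Gm10973, -0.0725 to 0.123 for Dennd4b, -0.162 to 0.0536 for Gatad2b and -0.213 to 0.186 for Ilf2, and the log2 frequency difference with TAD3 from -0.13 to 0.82. Calls in the remaining library alone were more numerous. They ran within the window from 14 to 83 in keratinocytes, 73 to 152 in thymocytes, 10 to 30 in both, 3 to 57 in keratinocytes only and 43 to 142 in thymocytes only, and outward from 48 to 353, 134 to 470, 14 to 57, 27 to 296 and 77 to 449. At a q-value under 0.01, keratinocyte calls fell to 7 within the window and 29 outward, common calls within it to 5 and keratinocyte-only calls to 2 and 21. At a q-value under 0.1, common calls became 13 within and 19 outward. For contacts at least 50 kb apart within the window, keratinocyte calls were 7, common calls 4 and keratinocyte-only calls 3. Among contacts listed in both keratinocyte libraries, outward keratinocyte calls were 182. Thymocyte calls within the window stayed within 1.5 times their main count of 73 at every threshold and distance run.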
